A study of Mus musculus with 12 samples.

Results

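The RIG-I-like receptor genes Ddx58 and Dhx58 and the gene of their shared adaptor, Mavs, were followed through activation and inhibition of STING in mouse macrophages. They were chosen by gene symbol from a table of 24062 gene entries, with earlier results of these data known. Each of the 3 symbols has 1 entry, and all 3 passed the filter for testing. The third receptor of the family, Ifih1, was left out of the choice and is given below only beside the others. Messenger RNA was sequenced from bone marrow derived macrophages, primary wild-type cells of C57Bl/6 mice labelled as passage 1, in 4 groups of 3 libraries. The groups were C-178 together with CMA, CMA alone, C-178 alone, and no stimulation, and the 3 treated groups carry a treatment time of 2 h. STING is a membrane protein of the endoplasmic reticulum that turns the sensing of DNA in the cytosol into interferon production; C-178 inhibits it covalently, and CMA is an agonist of the mouse protein. The sources used here give no doses, nor whether the unstimulated cells received a vehicle.

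DDX58, the protein usually called RIG-I, is a cytosolic helicase that binds RNA with a triphosphate at its end, as many viral RNAs carry, and passes the signal on through its caspase-recruitment domains. DHX58, also called LGP2, has the helicase but lacks those domains, and it tunes the signal of the other receptors. MAVS sits on the outer mitochondrial membrane, assembles into filaments once a receptor binds it, and recruits the kinases that activate IRF3, IRF7 and NF-κB. In macrophages the receptor genes are known as interferon-stimulated genes, whereas the adaptor is present before stimulation. STING recruits the same TBK1 kinase from the DNA-sensing side.

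In the GRCm38 (mm10) annotation, Ddx58 has 18 exons on the minus strand at chr4:40203773-40239828. Dhx58 has 13 exons on the minus strand at chr11:100694884-100704271, and an annotated antisense gene, Dhx58os, overlaps it. The counting is not stated to have used strand, so reads of the antisense gene cannot be told apart from those of Dhx58. Mavs has 7 exons on the plus strand at chr2:131234063-131248025. The start regions of Ddx58 and Mavs, the 2 of 3 members with an entry among the RefSeq promoters (GRCm38.p6), are shown to set a receptor gene beside the adaptor gene. Both strands were searched for the core of the interferon-stimulated response element (GAAA, any 2 bases, GAAA), the core of the gamma-activated sequence (TTCNNNGAA) and the kappaB site. Capitals mark the only match found in either window. The Ddx58 window is the minus strand of chr4:40239776-40240075, and the Mavs window is the plus strand of chr2:131233813-131234112.
Ddx58: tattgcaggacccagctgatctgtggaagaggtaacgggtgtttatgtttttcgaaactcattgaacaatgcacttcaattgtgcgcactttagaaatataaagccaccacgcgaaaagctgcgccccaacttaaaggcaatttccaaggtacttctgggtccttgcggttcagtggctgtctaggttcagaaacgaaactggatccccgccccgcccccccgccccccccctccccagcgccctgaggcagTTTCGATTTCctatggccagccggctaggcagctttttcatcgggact
Mavs: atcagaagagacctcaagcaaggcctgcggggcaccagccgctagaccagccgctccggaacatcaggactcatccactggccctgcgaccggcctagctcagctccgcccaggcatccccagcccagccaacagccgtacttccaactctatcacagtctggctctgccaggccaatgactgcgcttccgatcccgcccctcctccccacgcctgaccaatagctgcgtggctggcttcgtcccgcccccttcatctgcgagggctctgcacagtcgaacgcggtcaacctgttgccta
The capitals in Ddx58, TTTCGATTTC, are the response-element core read on the opposite strand, at bases 3 to 12 after the annotated start. Of 32851 promoters in the table, 3.44% held this core, 8.3% held TTCNNNGAA and 8.46% held a kappaB site. The 3 motifs may overlap one another, and a match is only a run of letters.

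Libraries held 7.049 to 36.438 M reads, recovered as whole numbers from the normalised counts that the authors deposited. Number 1 of the C-178 plus CMA group and number 1 of the C-178 group were the deepest (36.438 and 28.476 M), and every CMA library (7.126 to 7.826 M) was shallower than every unstimulated one (13.907 to 17.449 M). Of the unstimulated libraries, 2 share a column heading, so they are called 1, a and b. All 10 macrophage markers averaged over 100 normalised counts in every group. The extract protocol in the labels speaks of embryonic fibroblasts; the sum of 10 fibroblast markers was 479.8 to 1055.2 with C-178 plus CMA, 1043.3 to 2019.1 with CMA, 910.9 to 1022.6 with C-178 and 699.7 to 743.5 without stimulation, against at least 342737.5 for the macrophage markers. In the same order of groups, 3, 5, 4 and 3 of the 10 fibroblast markers averaged over 100, and Lum stayed under 10 in every library. The fibroblast sum was thus highest with CMA, and its part in the results was not tested. Nothing in the labels says that replicates came from separate cultures or animals, so p-values measure the spread between these libraries, which may be technical.

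Per kilobase of transcript, Ddx58 stood highest of the 3 genes and Mavs lowest in the means of all 4 groups. The place of Mavs depends on the length of the annotated principal transcript used for each gene. Before division by length, Mavs averaged 949.5 normalised counts and Dhx58 930.7 without stimulation. With C-178 alone these means were 914.5 and 839.1. In both groups given CMA, Dhx58 was above Mavs on either scale. With C-178 plus CMA, Ddx58 averaged 2869 ± 1237 normalised counts per kilobase, Dhx58 1815 ± 341.0 and Mavs 279.6 ± 20.7 (SD, n = 3). With CMA alone Ddx58 averaged 5643 ± 671.5, Dhx58 2566 ± 286.7 and Mavs 210.0 ± 33.88 per kilobase. The gap between the receptor genes and the adaptor gene was thus widest with CMA. With C-178 alone the averages per kilobase were 610.5 ± 99.19, 347.9 ± 34.23 and 299.1 ± 15.03 in the same gene order. Without stimulation Ddx58 averaged 629.1 ± 40.55, Dhx58 385.9 ± 53.97 and Mavs 310.6 ± 7.05 per kilobase. Between single libraries, the ranges per kilobase overlapped for Ddx58 and Dhx58 with C-178 plus CMA (1645 to 4119 and 1431 to 2083) and for Dhx58 and Mavs with C-178 alone (309.6 to 375.7 and 289.6 to 316.5), and for no other neighbours in the order. Within every library, however, Ddx58 was above Dhx58 and Dhx58 above Mavs per kilobase.

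**Figure D1:**
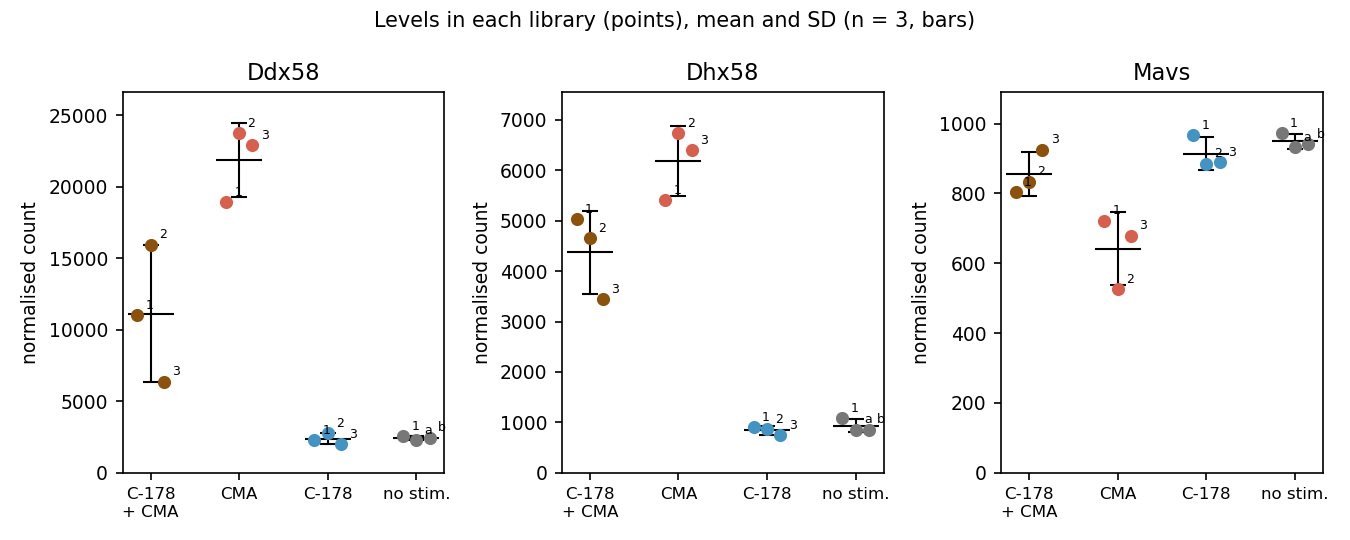
Normalised counts (linear axes starting at 0) of Ddx58, Dhx58 and Mavs in each of the 12 libraries, 1 point a library with its number, and a bar at the mean with SD (n = 3 per group). For all 3 genes the CMA libraries lie apart from the unstimulated libraries, Mavs below them, and the C-178 plus CMA libraries of Ddx58 spread from 6373 to 15955.

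CMA alone raised both receptor genes and lowered the adaptor gene. Ddx58 had 18896, 23765 and 22918 normalised counts in CMA libraries 1, 2 and 3, against 2583, 2271 and 2457 in unstimulated libraries 1, a and b. Every CMA library was several times above every unstimulated one. The rise was 8.94-fold, a log2 change of 3.16 ± 0.25 (SE; limma, Benjamini-Hochberg adjusted p = 2.79e-07), and 2.23% of the 11440 tested genes rose by more. Fold changes are on the log2(normalised count + 1) scale throughout.

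Dhx58 had 5414, 6744 and 6408 normalised counts in the CMA libraries, against 1081, 855.1 and 856.0 in the unstimulated libraries. These groups also lay well apart. Dhx58 was 6.66-fold higher with CMA (log2 change 2.73 ± 0.16 SE; limma adjusted p = 1.26e-08), a rise exceeded by 2.88% of tested genes.

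Mavs had 721.9, 525.0 and 679.1 normalised counts in the CMA libraries, against 973.8, 932.7 and 942.1 in the unstimulated libraries. All CMA libraries were below all unstimulated ones, with number 2 the lowest. Mavs fell 1.49-fold (log2 change -0.58 ± 0.13 SE; limma adjusted p = 0.00276), and 17.8% of tested genes fell by more. In bulk RNA, fewer cells of a type and less RNA per cell cannot be told apart. Mavs rested on 266 to 438 reads in each CMA library, so counting error alone gave a CV of 4.78% to 6.13% there, against 16.1% between the CMA libraries. Reads without molecular identifiers make this a lower limit on technical error.

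So 2 of the 3 genes were called higher and 1 lower with CMA, where 19.4% of all tested genes were called higher and 17.9% lower at an adjusted p under 0.05. The CMA and unstimulated libraries did not overlap for any of the 3, nor for 61.8% of all tested genes. Totals of normalised counts were also larger with CMA (12.899 to 14.064 M) than without stimulation (10.229 to 10.573 M). Scaling libraries to equal totals, chosen after seeing the data, moved the median gene by -0.37 on the log2 scale, and Mavs was then at -0.95 (limma adjusted p = 0.000101). All 3 calls held under each of the 25 alternatives computed for this comparison.

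No change of the 3 genes with C-178 alone passed the test. Ddx58 had 2304, 2776 and 2015 normalised counts with C-178, Dhx58 had 906.1, 864.2 and 746.8, and Mavs had 967.4, 885.3 and 890.7. For each gene the C-178 libraries overlapped the unstimulated ones given above. The log2 change was -0.05 for Ddx58 (95% interval -0.59 to 0.48), -0.15 for Dhx58 (-0.49 to 0.2) and -0.06 for Mavs (-0.33 to 0.22). None was called (limma adjusted p = 1 for each), nor by edgeR or DESeq2, where 0.0962% of all tested genes were called by limma. Libraries of these groups did not overlap for 15.6% of tested genes. The intervals leave room for changes of either sign.

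With C-178 present, CMA-treated cells had less Ddx58 and Dhx58 and more Mavs than with CMA alone. Ddx58 had 11011, 15955 and 6373 normalised counts with C-178 plus CMA, against the 18896 to 23765 of CMA alone. Number 3 was the lowest and number 2 the highest, and the groups did not overlap. Ddx58 fell 2.09-fold (log2 change -1.07 ± 0.25 SE; limma adjusted p = 0.00913). Without C-178 plus CMA number 3 the log2 change was -0.71 (limma adjusted p = 0.0119), and with only these 2 groups in the fit it was -1.07 (limma adjusted p = 0.0678).

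Dhx58 had 5024, 4655 and 3452 normalised counts with C-178 plus CMA, against the 5414 to 6744 of CMA alone. The highest of the C-178 plus CMA libraries lay just under the lowest CMA library. Dhx58 fell 1.43-fold (log2 change -0.51 ± 0.16 SE; limma adjusted p = 0.0332). This call was lost under 8 of 26 alternatives, among them leaving out CMA library 2 (log2 change -0.45, limma adjusted p = 0.127), CMA library 3 (-0.48, adjusted p = 0.105) or C-178 plus CMA library 3 (-0.35, adjusted p = 0.094).

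Mavs had 804.7, 833.9 and 925.9 normalised counts with C-178 plus CMA, against 721.9, 525.0 and 679.1 with CMA alone. The groups did not overlap, and Mavs rose 1.34-fold (log2 change 0.42 ± 0.13 SE; limma adjusted p = 0.0309). The call was lost under 6 of 26 alternatives, among them leaving out CMA library 2 (log2 change 0.28, limma adjusted p = 0.146), CMA library 3 (0.47, adjusted p = 0.059) or C-178 plus CMA library 3 (0.36, adjusted p = 0.0684), and the replicate block (0.42, adjusted p = 0.0597). Without unstimulated library a the limma adjusted p was 0.04999, just under the threshold. Of the 3 genes, then, 1 was called higher and 2 lower, where 10.6% of all tested genes were called higher and 13.5% lower. The groups did not overlap for the 3 members, nor for 35.5% of all tested genes. Each of the 3 moved opposite to its change with CMA alone; as both comparisons use the same CMA libraries, this is a side-by-side description.

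**Figure D2:**
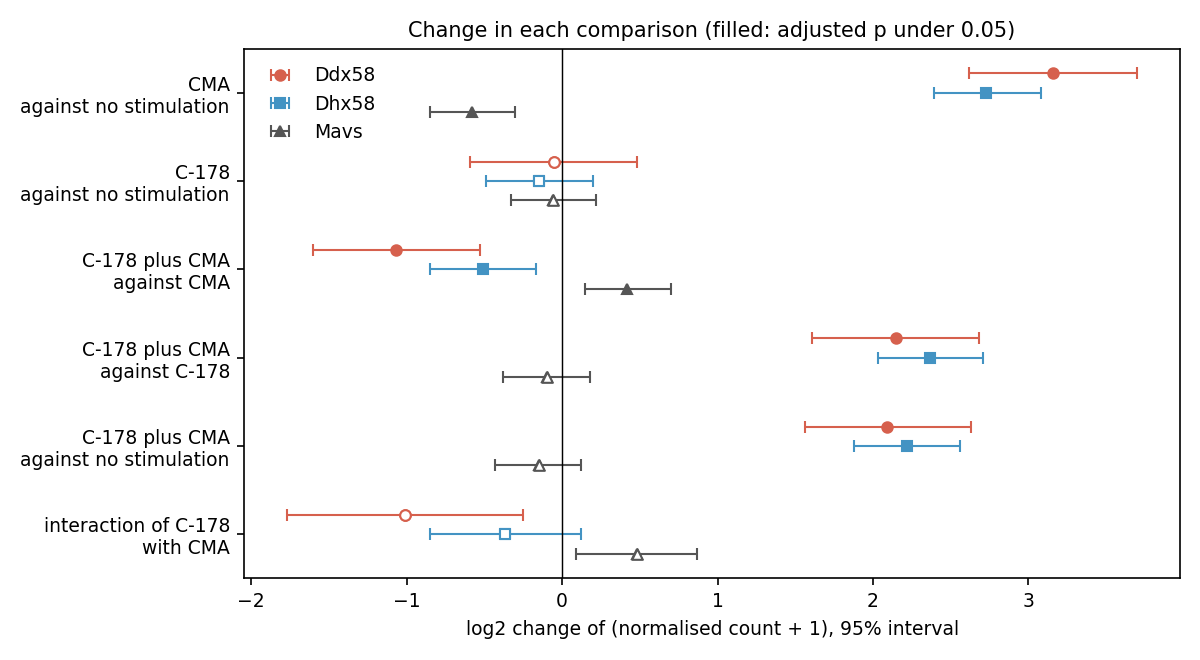
Log2 change of Ddx58, Dhx58 and Mavs in each comparison with its 95% interval, filled where called (limma, all 12 libraries; log2 of normalised count + 1). The intervals of C-178 against no stimulation span 0 for all 3 genes, and both receptor genes lie above 2 wherever a CMA-treated group is set against a group without CMA.

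Both receptor genes were still well above the level of cells without CMA when C-178 was present. Against C-178 alone, C-178 plus CMA raised Ddx58 4.43-fold (log2 change 2.15 ± 0.25 SE; limma adjusted p = 2.54e-05) and Dhx58 5.16-fold (2.37 ± 0.16 SE; adjusted p = 1.21e-07). Mavs differed by -0.1 with a 95% interval of -0.38 to 0.18 (limma adjusted p = 0.6), and its groups overlapped. So 2 of 3 genes were called, both higher, where 13.5% of all tested genes were called higher, 12.6% were called lower and 34% did not overlap. Against no stimulation, Ddx58 was 4.27-fold higher (2.09 ± 0.25 SE; limma adjusted p = 3.27e-05) and Dhx58 4.67-fold higher (2.22 ± 0.16 SE; adjusted p = 2.5e-07), where 11.1% of all tested genes were called higher, 10.5% were called lower and 34.5% did not overlap. Mavs was below every unstimulated library in all 3 C-178 plus CMA libraries, with a log2 change of -0.15 that did not pass the test (95% interval -0.43 to 0.12; limma adjusted p = 0.439).

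Set side by side, the CMA change of Ddx58 was 2.15 with C-178 and 3.16 without it, so that the change with C-178 was 67.9% of the log2 change without it. For Dhx58 it was 2.37 with C-178 and 2.73 without it, or 86.6%. For Mavs it was -0.1 with C-178 and -0.58 without it. The test of these differences, the interaction of C-178 with CMA, gave -1.01 ± 0.35 for Ddx58 (SE; limma adjusted p = 0.0772), -0.37 ± 0.22 for Dhx58 (adjusted p = 0.271) and 0.48 ± 0.18 for Mavs (adjusted p = 0.0986). None was called, where 9.94% of all tested genes were called and 5.99% were called in the negative direction. The value of Dhx58 was -0.2 without C-178 plus CMA library 3 (limma adjusted p = 0.47) and -0.1 with quantile normalisation (adjusted p = 0.748). Ddx58 was called without C-178 plus CMA library 2 (-1.32, limma adjusted p = 0.00435) and with array weights (-0.86, adjusted p = 0.0123).

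The C-178 plus CMA libraries varied more in the receptor genes than those of the other groups. This was not particular to the receptor genes. Over all genes with enough reads to compare, chi-square per gene was 68.29 to 113.06 between C-178 plus CMA replicates. In the other groups it was 2.46 to 26.32, and this measure also grows with depth. The CV of Ddx58 was 43.1% with C-178 plus CMA, 11.9% with CMA, 16.2% with C-178 and 6.45% without stimulation. Dhx58 had CVs of 18.8%, 11.2%, 9.84% and 14.0% in the same order of groups. Mavs instead varied most with CMA, at 16.1%, against 7.4% with C-178 plus CMA. Number 3 was the lowest C-178 plus CMA library for both receptor genes and the highest for Mavs. The limma fit takes 1 spread per gene over all groups.

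The balance of the receptor genes was followed as the ratio of Dhx58 to Ddx58 normalised counts within a library, which is not per length and is compared only between groups. The ratio was 0.456, 0.292 and 0.542 with C-178 plus CMA, 0.287, 0.284 and 0.280 with CMA, 0.393, 0.311 and 0.371 with C-178, and 0.418, 0.377 and 0.348 without stimulation. The CMA libraries were nearly equal and lay below those of all other groups. Over the 5 pairs of groups, CMA against no stimulation gave a log2 difference of -0.42 and C-178 plus CMA against CMA gave 0.56, each with p = 0.1 (exact two-sided permutation test; adjusted p = 0.25), the smallest p that 3 libraries against 3 allow. The other 3 pairs, C-178 plus CMA against C-178 (0.22), C-178 against no stimulation (-0.09) and both compounds against no stimulation (0.13), had exact permutation p of 0.5 to 0.6. None passed, and with this number of libraries none could.

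**Figure D3:**
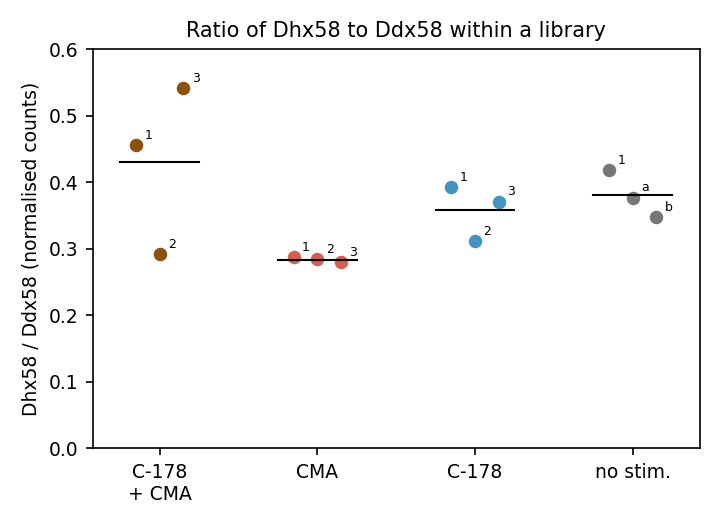
Ratio of Dhx58 to Ddx58 normalised counts in each library by group (n = 3 each, linear axis from 0). The CMA libraries sit together at 0.280 to 0.287, under the unstimulated ones at 0.348 to 0.418, and the C-178 plus CMA libraries spread from 0.292 to 0.542.

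The genes whose pattern over the 12 libraries was most like each member were named by Pearson's r of log2 values; the points share the 4 treatment groups, and r is given as a description. Nearest to Ddx58 were Gbp7, a guanylate-binding GTPase, Herc6, a HERC-family ubiquitin ligase, and Slfn5, a Schlafen protein (r = 0.998 for each). Slfn5, for example, averaged 25869 normalised counts with C-178 plus CMA, 55866 with CMA, 3928 with C-178 and 3834 without stimulation. Nearest to Dhx58 were the antiviral dynamin-like GTPases Mx2 and Mx1 (r = 0.998 each) and Rsad2, the antiviral enzyme viperin (r = 0.997). Rsad2 averaged 126715 with C-178 plus CMA, 249894 with CMA, 1618 with C-178 and 1630.2 without stimulation. Ddx58 and Dhx58 had r = 0.98 with each other. That is lower than with these genes, but these were picked as the highest over all tested genes.

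Nearest to Mavs were Fblim1, which encodes the filamin-binding protein migfilin (r = 0.969), the unnamed gene 1600002H07Rik (0.963) and Map1s, a microtubule-associated protein (0.962). Fblim1 averaged 805.4 normalised counts with C-178 plus CMA, 466.4 with CMA, 923.8 with C-178 and 916.9 without stimulation. Mavs had r = -0.825 with Ddx58 and -0.759 with Dhx58. The response-element core was found in the promoters of Gbp7 and Slfn5, 2 of the 3 genes nearest to Ddx58, and of Rsad2, the only one of the 3 nearest to Dhx58 with an entry. It was in neither of the 2 entries among the genes nearest to Mavs. Over all promoters 3.44% held the core, so its absence from these 2 entries is no result. The nearest genes were also picked by their correlation in these data, and the counts are only described.

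On the chromosomes, the members' nearest tested neighbours mostly did not pass the test with CMA. Over all tested genes, 19.4% were called higher and 17.9% lower. With so few neighbours the tally is no result about them. Beside Ddx58, Aco1, the iron regulatory protein, changed by -0.18 (limma adjusted p = 0.207) and Topors, a ubiquitin and SUMO ligase, by 0.2 (adjusted p = 0.441). Beside Dhx58, Kat2a, a histone acetyltransferase 0.475 kb away, changed by 0.09 (limma adjusted p = 0.585). On the other side Nkiras2, an NF-κB regulator 67.3 kb away, changed by -0.11 (limma adjusted p = 0.594). Nkiras2 was called higher with C-178 plus CMA than with CMA (0.48 ± 0.14 SE; limma adjusted p = 0.0272). The only tested neighbour called with CMA was Ap5s1, an adaptor-complex subunit 20.5 kb from Mavs. Ap5s1 averaged 186.2 ± 51.93 normalised counts with C-178 plus CMA, 62.97 ± 4.6 with CMA, 181.7 ± 38.86 with C-178 and 207.8 ± 3.16 without stimulation (SD, n = 3). It fell with CMA (log2 change -1.71 ± 0.21 SE; limma adjusted p = 2e-05) and was higher with C-178 plus CMA than with CMA (1.51 ± 0.21 SE; adjusted p = 0.000413). Pank2, a pantothenate kinase on the other side of Mavs, changed by 0.18 with CMA (limma adjusted p = 0.207).

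The lists of pathway genes that follow were chosen with earlier results of these data known, so their counts are only described. Of 9 other RNA sensors, 6 rose and 1 fell with CMA, where 19.4% of all tested genes were called higher and 17.9% lower. The median log2 change of the sensors was 2.42, against -0.01 over all tested genes. The largest rise was that of Ifih1, encoding MDA5, the receptor of long double-stranded RNA. Ifih1 averaged 11509 ± 5402 normalised counts with C-178 plus CMA, 39341 ± 5808 with CMA, 1198 ± 198.3 with C-178 and 1139 ± 112.3 without stimulation (SD, n = 3). It rose by 5.1 ± 0.25 on the log2 scale with CMA (limma adjusted p = 3.01e-09) and was -1.87 ± 0.25 with C-178 plus CMA against CMA (adjusted p = 0.000336). Its interaction was called (-1.93 ± 0.36 SE; limma adjusted p = 0.00716). The Z-nucleic acid sensor Zbp1 rose by 3.73 (limma adjusted p = 4.91e-09) and the endosomal double-stranded RNA receptor Tlr3 by 3.02 (adjusted p = 3.14e-07). Tlr13, the endosomal sensor of bacterial ribosomal RNA, fell by 1.06 (limma adjusted p = 6.38e-06), and it was named after its values were seen. Of the 9, 1 was higher and 4 were lower with C-178 plus CMA than with CMA (median -0.45, against 0 over all tested genes, of which 10.6% were called higher and 13.5% lower).

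Downstream of MAVS, 11 of 21 adaptors, kinases and transcription factors rose and 2 fell with CMA (median 0.6), beside the 19.4% and 17.9% of all tested genes. Irf7, the interferon-inducible factor that drives later interferon genes, rose by 2.65 ± 0.18 (SE; limma adjusted p = 7.23e-08). Azi2, an adaptor of TBK1 and IKKε, rose by 1.65 (limma adjusted p = 3.78e-06) and Nfkb1, an NF-κB subunit, by 1.26 (adjusted p = 3.59e-05). Of the 21, 1 was higher with C-178 plus CMA than with CMA and 7 were lower (median -0.22), beside 10.6% and 13.5% of all tested genes. Azi2 (-0.68, adjusted p = 0.0131) and Nfkb1 (-0.9, adjusted p = 0.00244) were among the lower ones, whereas Irf7 was at -0.02 (limma adjusted p = 0.934), with 19487 normalised counts on average with C-178 plus CMA and 19193 with CMA. The core kinase genes Tbk1 and Ikbke and the factor Irf3 were looked up after their values were known. Tbk1 (0.73, limma adjusted p = 0.000392) and Ikbke (0.62, adjusted p = 0.00269) rose with CMA, and Irf3 was at -0.22 (adjusted p = 0.261).

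Of 22 genes known to promote signalling by the receptors or MAVS, 21 were tested (Trim31 did not pass the filter). With CMA 10 rose and 1 fell (median 0.38), beside 19.4% and 17.9% of all tested genes. Oasl1 rose by 6.04 ± 0.17 (SE; limma adjusted p = 2.74e-11), Ifit3, which links MAVS to TBK1, by 4.97 (adjusted p = 3.02e-10), and the helicase gene Ddx60 by 3.97 (adjusted p = 3.95e-06). Oasl1 has its place here from human OASL, which activates RIG-I; the mouse gene is known also to restrain Irf7 translation. The ubiquitin ligase genes of RIG-I, Trim25 (1.72, limma adjusted p = 6.09e-06) and Rnf135 (2.03, adjusted p = 4.34e-06), also rose and were looked up after their values were known. In cells given C-178 plus CMA against CMA, 1 was higher and 6 lower (median -0.36), beside 10.6% and 13.5% of all tested genes. Ddx60 was among those lower (-1.4, limma adjusted p = 0.0275), while Oasl1 (-0.36, adjusted p = 0.127) and Ifit3 (-0.41, adjusted p = 0.121) did not pass.

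Of 19 genes known to restrain the pathway, 18 were tested (Rnf125 did not pass the filter), and 4 rose and 3 fell with CMA (median -0.02). These counts are near the 19.4% higher and 17.9% lower of all tested genes and are no result about the list. Tnfaip3, the ubiquitin-editing enzyme A20, rose by 4.16 ± 0.22 (SE; limma adjusted p = 4.7e-09), Adar, which edits double-stranded RNA so that MDA5 ignores it, by 2.23 (adjusted p = 9.72e-07), and Mul1, a mitochondrial ubiquitin ligase, by 1.33 (adjusted p = 2.24e-06). With C-178 plus CMA against CMA, 2 were higher and 3 lower (median 0.11), again near the 10.6% and 13.5% of all tested genes. Tnfaip3 changed by -3.35 on the log2 scale (limma adjusted p = 1.03e-06), averaging 404.4 normalised counts with C-178 plus CMA and 4048 with CMA. Mul1 was also lower (-0.64, limma adjusted p = 0.00445), and Adar was at -0.57 (adjusted p = 0.0524).

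With C-178 alone no member of these 4 lists was called against no stimulation. With C-178 plus CMA against C-178 alone, the lists had 5, 8, 8 and 4 genes higher and 1, 1, 2 and 2 lower, in the order sensors, downstream genes, promoting genes and restraining genes. The medians were 1.43, 0.11, 0.21 and 0.17, and 13.5% of all tested genes were called higher and 12.6% lower. The counts of restraining genes and of lower calls are not read as results about the lists. Set against no stimulation, C-178 plus CMA had 5, 6, 8 and 5 higher and 1, 1, 2 and 1 lower, beside 11.1% and 10.5% of all tested genes. The interaction was called for 1 sensor, Ifih1, 2 downstream genes, 1 promoting gene and 1 restraining gene, all of them negative. Over all tested genes 5.99% were called in the negative direction and 9.94% in either direction. These small counts are not read as results about the lists.

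**Figure D4:**
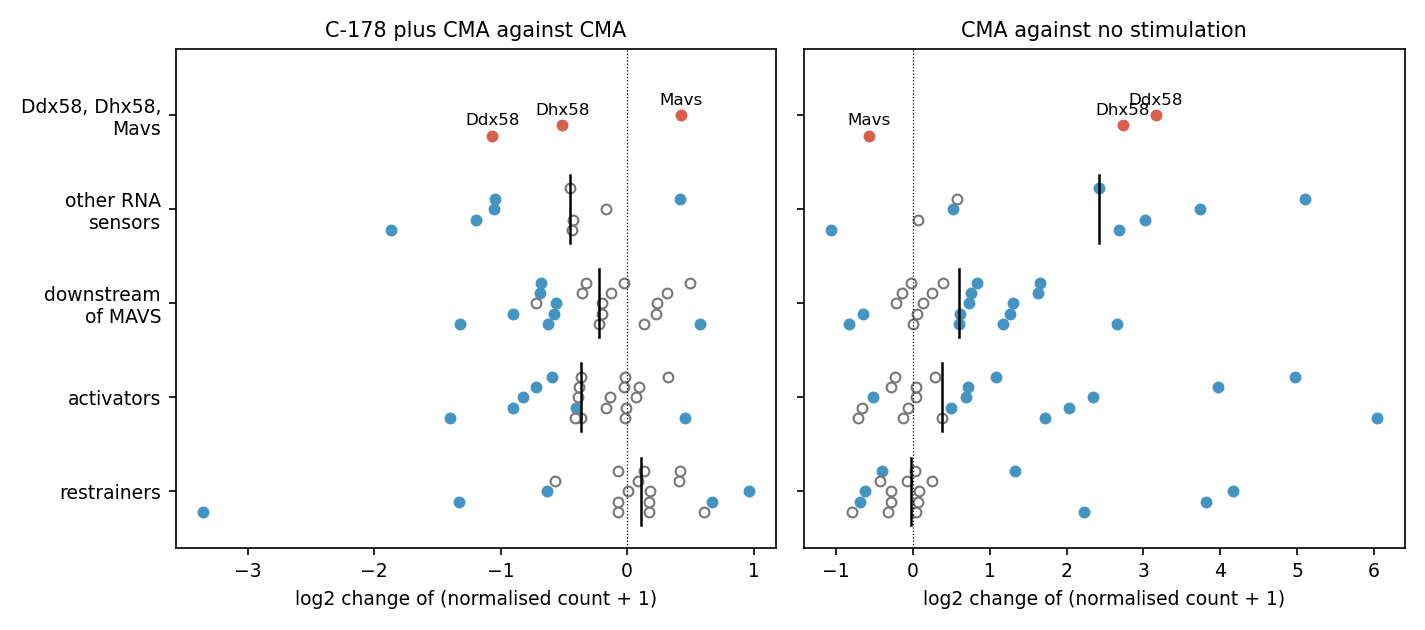
Log2 change (log2 of normalised count + 1) of the 3 members in red and of the genes of 4 lists, filled blue where called by limma (adjusted p under 0.05) and open where not, with a black line at each list's median; C-178 plus CMA against CMA on the left and CMA against no stimulation on the right. The sensors have the highest median with CMA (2.42), and restrainer Tnfaip3 lies farthest left in the left panel (-3.35).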

How the data were processed

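The authors deposited normalised counts per gene and library, a signal of 24062 entries by 12 libraries. Per the submitters' processing notes, Bowtie2 2.2.1, limma 3.18.13 and mm10 were used; the sources used here give no counting tool, annotation or strand setting. Per the file headers, Cook's distances stand beside the values, so division by size factors is inferred; those 12 columns were left out. Each library's values were whole multiples of 1 step (100% of values, tolerance 0.01), taken as reads, and edgeR 4.0.16 and DESeq2 1.42.0 were run on them as alternatives.

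Log2 of value + 1 was fitted with limma 3.58.1 (R 4.3.3; eBayes with a mean-variance trend) over all 12 libraries for genes above 10 in at least 3 libraries (11440 genes), with Benjamini-Hochberg adjustment within each comparison and calls under 0.05. The ratio was tested by exact permutation. The analysis steps were tested on simulated data. For the limma, edgeR and DESeq2 fits, these data had the same dispersion (0.02) for every gene and group, and changes with CMA only. The real groups differed in spread, so this test does not cover comparisons with the C-178 plus CMA libraries. Coordinates and lengths came from GENCODE M21 (22724 entries matched) and promoters from RefSeq. Named genes were the members, the 3 most correlated genes and the tested neighbours of each member, the 3 genes of each list with the smallest adjusted p with CMA, and Ifih1; Tlr13, Tbk1, Ikbke, Irf3, Trim25 and Rnf135 fall outside this rule and were chosen after their values were seen. The members and lists were chosen with earlier results of these data known, and markers and lists were written from general knowledge.

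Same-numbered libraries were compared by the correlation of their deviations from group means. C-178 plus CMA and C-178 gave 0.45, 0.43 and 0.26, above 0.1, so their numbers were taken to pair; both number 1 libraries were the deepest. C-178 plus CMA and CMA gave -0.14, 0.18 and -0.16. No replicates agreed within counting noise (chi-square per gene at least 2.46). Intervals cover the spread between libraries, and counting CVs cover counting error only.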

Additional observations from a re-analysis of the deposited data

How the results depend on the processing

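The alternatives were 26 in all, 12 of them leaving out a library; scaling to equal totals was chosen after seeing the data. Every member result of CMA against no stimulation, and of C-178 plus CMA against either C-178 or no stimulation, kept its direction and its side of the threshold under the alternatives computed for it. For C-178 plus CMA against CMA, fitting only these groups gave Ddx58 -1.07 (limma adjusted p = 0.0678), Dhx58 -0.51 (0.126) and Mavs 0.42 (0.15). Dhx58 also missed the threshold with quantile normalisation (-0.27), array weights (-0.46), no trend (-0.51) and equal totals (-0.36), and Mavs with array weights (0.38). Leaving out 1 library gave -1.38 to -0.71 for Ddx58, -0.62 to -0.35 for Dhx58 and 0.28 to 0.51 for Mavs. For C-178 against no stimulation, leaving out 1 library gave -0.18 to 0.06 for Ddx58, above 0 without C-178 library 3. The interaction of Ddx58 passed with array weights (-0.86), and leaving out 1 library gave -1.32 to -0.66. The ratio's differences turned sign without C-178 library 2 (0.01, C-178 against no stimulation; range -0.16 to 0.01) and without C-178 plus CMA library 3 (-0.06, C-178 plus CMA against no stimulation; range -0.06 to 0.39). The cause of these losses was not tested.

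With the replicate block over the treated groups, C-178 plus CMA against CMA gave Ddx58 -1.07 (adjusted p = 0.00838), Dhx58 -0.51 (0.0439) and Mavs 0.42 (0.0597); only Mavs lost its call, and no other member call changed. Deviations of same-numbered libraries correlated at -0.16 to 0.18 between CMA and C-178 plus CMA, and at -0.08 to 0.06 between CMA and C-178. For C-178 plus CMA against CMA the block thus rests on a pairing that was not seen. For the pair whose numbers were taken to match, C-178 plus CMA against C-178, the block gave 2.15, 2.37 and -0.1. No paired analysis was possible for comparisons with no stimulation because 2 of its columns share a heading.

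Of 302 counts over all genes, 66 moved by over 1.5 times. With equal totals, CMA against no stimulation called 1423 genes higher and 4748 lower, against 2224 and 2047 as deposited. For C-178 against no stimulation, 11 genes were called higher and 0 lower (420 at an unadjusted p under 0.05); array weights called 823 and 1026, DESeq2 34 and 4, quantile normalisation 17 and 1, and the fit of only these groups 27 and 4, while edgeR called 1 lower. For C-178 plus CMA against CMA, the fit of only these groups called 261 higher and 593 lower, against 1217 and 1543. Mavs rested on as few as 266 reads in a CMA library.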
